A study of Mus musculus with 8 samples.

Results

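The genes of laminins, nidogens and basement membrane proteoglycans were described in cultured mouse fat cells that had received DMSO or DoxSa. The 10 genes were taken by symbol from a table of 22962 genes, and all 10 were present: the laminin chains Lama2, Lama4, Lama5, Lamb1, Lamb2 and Lamc1, the nidogens Nid1 and Nid2, the proteoglycan perlecan (Hspg2) and the matricellular protein Sparc. Sparc is a collagen-binding glycoprotein and not a proteoglycan. The study compared 4 libraries given the solvent DMSO with 4 given DoxSa on day 6, numbered 1 to 4 in each group. All 8 came from wild-type gonadal fat, from stromal vascular fraction cells differentiated in culture and labelled as mature adipocytes. The labels spell out neither DoxSa, its dose and the length of exposure nor the age and sex of the mice, and the series title concerns 1-deoxysphingolipids. They do not say whether libraries of a group came from separate cultures or mice, so the p-values below describe only how these libraries vary, which may be technical.

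A basement membrane is a thin sheet of matrix on the surface of a cell, and mature fat cells are each wrapped in one. Laminins are its self-assembling scaffold and are built from an alpha, a beta and a gamma chain. Nidogens and perlecan tie the laminin sheet to the second scaffold, collagen IV. The alpha chain largely sets which receptors a laminin binds, so chains that replace each other give sheets with different properties. SPARC binds collagens, including collagen IV, and is secreted in quantity by adipose stromal cells.

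The library totals used to scale the FPKM values, recovered from the steps of these values, lay between 39213008 and 41365861 reads. Adipocyte markers were abundant, with Fabp4, a fatty acid carrier, at 8698 ± 203 FPKM without and 8852 ± 293 FPKM with DoxSa (SD, n = 4), and 1 of 14 (Retn) fell. Macrophage markers were present too, with a summed level of 7143 to 8201 FPKM in DMSO and 7944 to 8470 FPKM in DoxSa, and 4 of 14 rose. Fibroblast and progenitor markers summed to 3754 to 4122 FPKM and 3633 to 4097 FPKM, with 1 of 12 tested higher and 1 lower. Of the endothelial markers, 10 of 14 had a mean under 0.5 FPKM, and the list summed to 5.96 to 8.19 FPKM in DMSO and 7.51 to 9.35 FPKM in DoxSa. Of the mesothelial markers, 7 of 8 were under 0.5 FPKM, as were 5 of 8 Schwann cell markers and 3 of 3 epithelial markers. The pericyte and smooth muscle markers differed most, and their values stand beside the results below.

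In DoxSa, 3 of the 9 tested genes fell and 0 rose. They were the laminin chains Lama2 and Lamb2 and the perlecan gene Hspg2, with mean levels 19.8%, 17.98% and 15.4% lower. Of all 12060 tested genes 244 (2.02%) were called lower and 468 (3.88%) higher, 5.9% in either direction, by limma on log2(FPKM + 1) at an adjusted p under 0.05. With quantile normalization the split over all genes was 316 lower and 384 higher. The count of 3 fell to 1 (Lama2) without DMSO 2, DoxSa 1 or DoxSa 2, and when low genes were kept in the fit. It was 2 (Lama2 and Lamb2) without DMSO 1, DMSO 4, DoxSa 3 or DoxSa 4, with equal FPKM sums, quantile normalization or library quality weights, and without the intensity trend. The chains that form most of the laminin message, Lama4, Lamb1 and Lamc1, did not pass the test, nor did Nid1, Nid2 and Sparc. Lama5 lay below the minimum mean of 0.5 FPKM and was not tested there. The median log2 fold change of the 9 genes was -0.06, against 0.01 over all tested genes. A log2 fold change was negative for 8 of the 9, as for 43.3% of all tested genes. In bulk RNA, fewer cells of a type and less RNA per cell cannot be told apart.

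**Figure D1:**
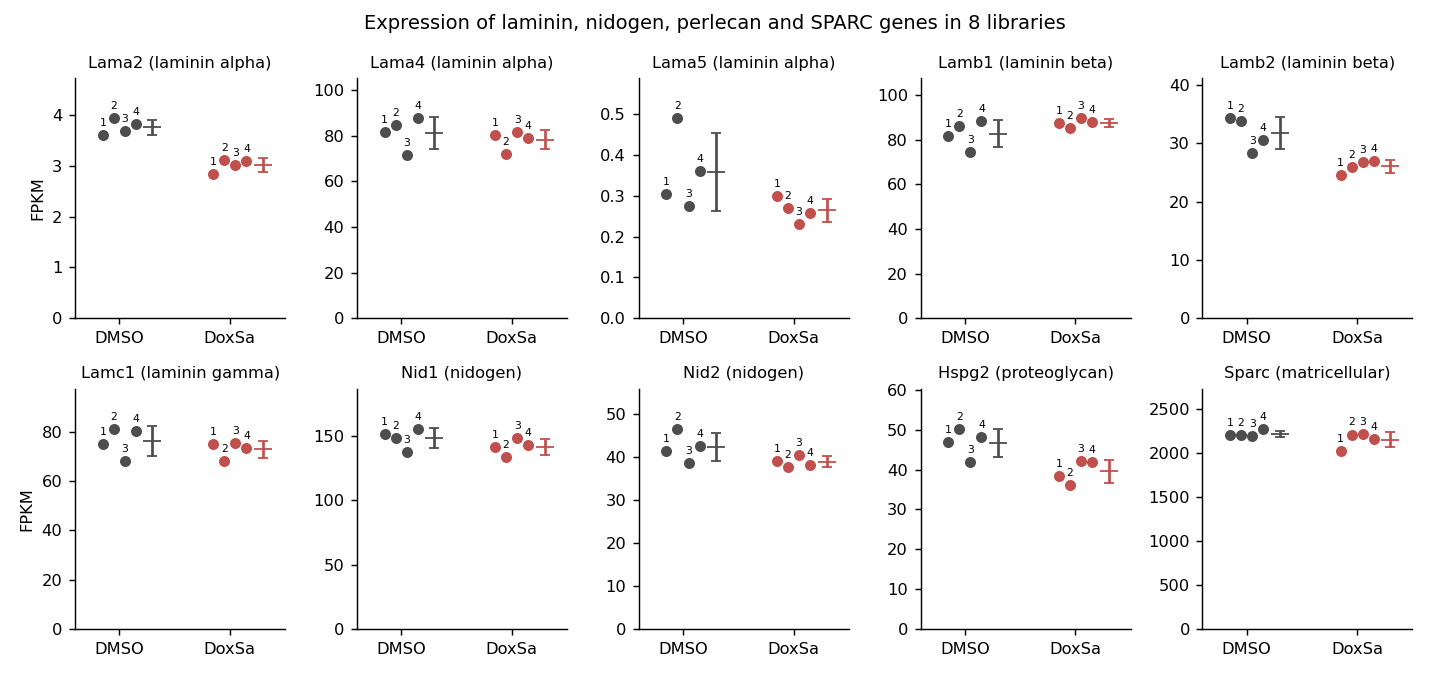
FPKM of each of the 10 genes (vertical axes, each from 0) in the 4 DMSO and 4 DoxSa libraries, numbered by replicate, with the group mean and SD beside the points. Lama2 and Lamb2 are the 2 genes whose DoxSa points all lie below the DMSO points, and DMSO 3 is the lowest DMSO point in 9 of 10 panels.

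FPKM is a level per gene length, so levels can be set side by side. Sparc was by far the most abundant, at 2187 FPKM over the 8 libraries, followed by Nid1 at 145 FPKM. Lamb1, Lama4 and Lamc1 followed at 85.2, 79.7 and 74.5 FPKM. Their ranges over the libraries overlapped, although within each of the 8 libraries Lamb1 was above Lama4 and Lama4 above Lamc1. Hspg2 and Nid2, at 43.2 and 40.6 FPKM, also overlapped, and Hspg2 was the higher in 6 of 8 libraries. Lamb2 stood at 28.9 FPKM, Lama2 at 3.39 FPKM and Lama5 at 0.311 FPKM, each apart from its neighbour in this order. The nearly equal levels of one alpha, one beta and one gamma gene were those of Lama4, Lamb1 and Lamc1.

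Lama2 encodes the alpha chain of the laminins of muscle and peripheral nerve, which bind dystroglycan. It measured 3.60, 3.94, 3.68 and 3.83 FPKM in DMSO 1 to 4 and 2.83, 3.13, 3.01 and 3.10 FPKM in DoxSa 1 to 4. Every DoxSa library lay below every DMSO library, a pattern that 2 of the 9 tested genes showed and 4.71% of all tested genes, while 7.8% of all tested genes showed the opposite pattern and 0 of the 9 did. The group means were 3.76 ± 0.149 FPKM and 3.02 ± 0.134 FPKM (SD, n = 4), a log2 fold change of -0.25 ± 0.05 on the log2(FPKM + 1) scale (SE, 95% interval -0.35 to -0.14, limma adjusted p = 0.0123). This scale understates the change of low genes, and with a pseudocount of 0.1 the value was -0.31. Between 1394 and 1865 reads per library lay behind these levels.

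Lama4 encodes the alpha chain typical of fat cells, vessels and other mesenchymal tissue. It measured 81.4, 84.7, 71.5 and 87.5 FPKM in DMSO and 80.1, 72.0, 81.4 and 79.0 FPKM in DoxSa. The groups overlapped, with DMSO 3 below all 4 DoxSa libraries. The log2 fold change was -0.05 ± 0.06 (limma, 95% interval -0.19 to 0.08, adjusted p = 0.691). Lama5 encodes the alpha chain of most mature epithelial and vascular basement membranes and measured 0.305, 0.490, 0.276 and 0.362 FPKM in DMSO and 0.299, 0.270, 0.232 and 0.257 FPKM in DoxSa. These levels rest on 108 to 219 reads, and the highest, in DMSO 2, stood above the other 7. In the limma fit with no filter on low values, over 22962 genes, its log2 fold change was -0.10 ± 0.05 (adjusted p = 0.425).

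Lamb1 and Lamb2 encode beta chains that replace each other in otherwise similar laminins. Lamb2 marks the laminins of synapses, kidney filters and vessel walls. Lamb2 measured 34.3, 33.9, 28.4 and 30.6 FPKM in DMSO 1 to 4 and 24.6, 25.9, 26.9 and 26.9 FPKM in DoxSa 1 to 4, again with no overlap between the groups. The log2 fold change was -0.27 ± 0.06 (limma, 95% interval -0.40 to -0.15, adjusted p = 0.0195). Lamb1 measured 81.7, 86.2, 74.6 and 88.6 FPKM in DMSO and 87.6, 85.5, 89.6 and 87.8 FPKM in DoxSa. It was the one tested gene of the 9 with a positive log2 fold change, 0.08 ± 0.05, and did not pass the test (limma, 95% interval -0.02 to 0.19, adjusted p = 0.380). Its DMSO libraries spread from 74.6 to 88.6 FPKM, while the DoxSa libraries lay within 85.5 to 89.6 FPKM.

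Lamc1, the gamma chain shared by most laminins, measured 75.1, 81.0, 68.0 and 80.3 FPKM in DMSO and 75.1, 67.9, 75.3 and 73.2 FPKM in DoxSa. The groups overlapped (log2 fold change -0.06 ± 0.06, limma 95% interval -0.18 to 0.06, adjusted p = 0.625).

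The nidogens bind the laminin gamma chain. Nid1 measured 151, 148, 137 and 155 FPKM in DMSO and 141, 133, 148 and 143 FPKM in DoxSa. Nid2 measured 41.4, 46.5, 38.6 and 42.6 FPKM in DMSO and 39.0, 37.7, 40.5 and 38.2 FPKM in DoxSa. In both genes DMSO 3 lay among the DoxSa libraries, and neither passed the test. The log2 fold changes were -0.06 ± 0.04 for Nid1 and -0.12 ± 0.05 for Nid2 (limma adjusted p = 0.480 and 0.240), and the 95% interval of Nid2 reached from -0.23 to 0.00.

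Hspg2 encodes perlecan, the large heparan sulfate proteoglycan of basement membranes, which holds growth factors on its sugar chains. It measured 47.0, 50.2, 41.9 and 48.1 FPKM in DMSO 1 to 4 and 38.3, 36.0, 42.04 and 41.8 FPKM in DoxSa 1 to 4. DMSO 3 lay between DoxSa 4 and DoxSa 3, and the other 3 DMSO libraries lay above all DoxSa libraries. The group means were 46.8 ± 3.52 FPKM and 39.5 ± 2.91 FPKM, with a log2 fold change of -0.24 ± 0.06 (limma, 95% interval -0.37 to -0.10, adjusted p = 0.0482). Sparc measured 2204, 2210.3, 2194 and 2272 FPKM in DMSO and 2026, 2211, 2219 and 2160.2 FPKM in DoxSa, with DoxSa 1 the lowest of all 8. Its log2 fold change of -0.04 ± 0.04 did not pass the test (limma, 95% interval -0.13 to 0.04, adjusted p = 0.608).

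**Figure D2:**
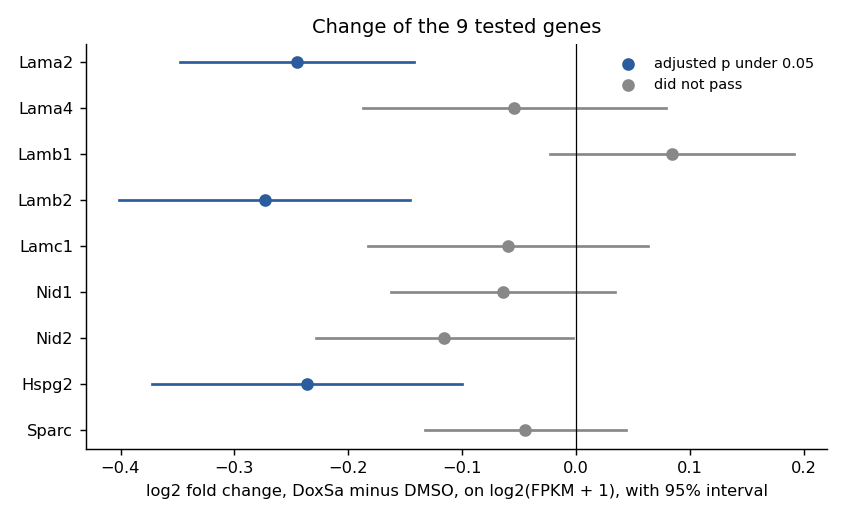
Log2 fold change (DoxSa minus DMSO, on log2(FPKM + 1), horizontal axis) of the 9 tested genes with 95% intervals of the limma fit. The intervals of Lama2, Lamb2 and Hspg2, in blue, lie wholly below 0 at an adjusted p under 0.05, and that of Nid2 ends just below 0 without passing.

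The call of Lama2 held when any 1 library was left out. That of Lamb2 was lost without DMSO 2 (adjusted p = 0.0556), DoxSa 1 (0.0621) or DoxSa 2 (0.0583), with a log2 fold change of -0.24, -0.25 and -0.27 in turn. Hspg2 kept its call without DMSO 3 (adjusted p = 0.0195) and lost it without any 1 of the other 7 libraries (adjusted p between 0.0506 and 0.132).

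**Figure D3:**
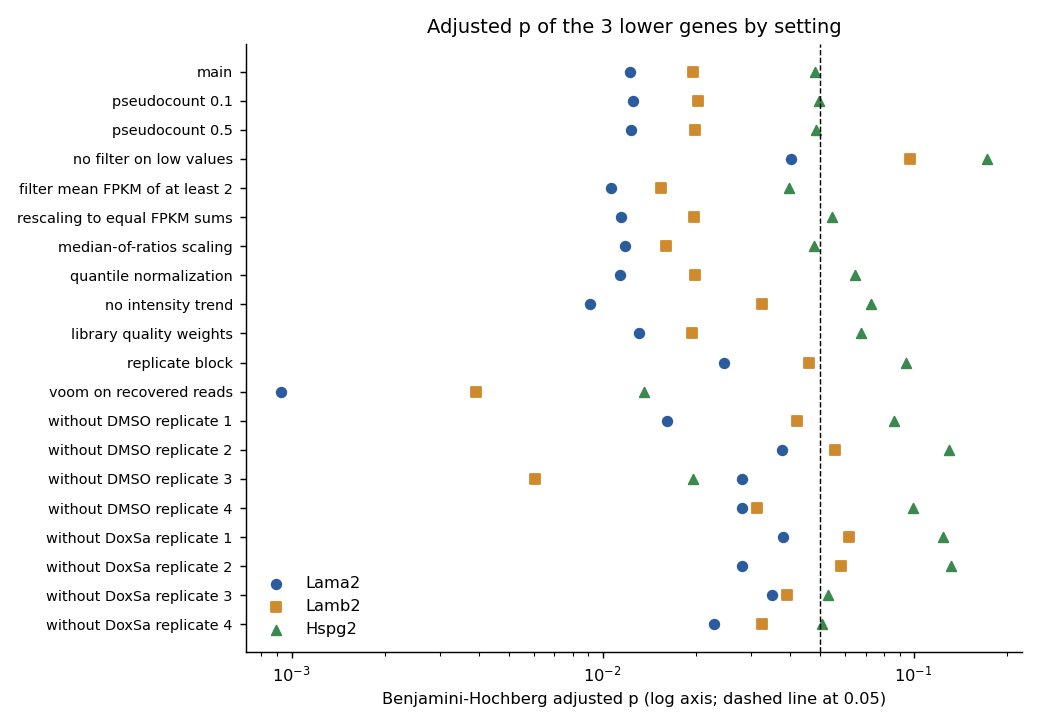
Adjusted p (log axis, dashed line at 0.05) of Lama2, Lamb2 and Hspg2 in the main fit and under the 19 alternatives, including each left-out library. Lama2 stays left of the line throughout, Lamb2 crosses it under 4 alternatives and Hspg2 under 13.

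The libraries of a group did not vary independently from gene to gene. DMSO 3 was the lowest DMSO library for 9 of the 10 genes, all but Lama2, while it was the lowest for 21.4% of all 12060 tested genes. Its median deviation from the DMSO mean was -0.15 on the log2 scale over the 9 tested genes and 0.01 over all tested genes. The shares over all tested genes were themselves unequal. DMSO 4 was lowest for 40.9% of all tested genes and for 0 of the 10, with median deviations of -0.03 over all tested genes and 0.04 over the 9. In the DoxSa group, DoxSa 2 was lowest for 6 of the 10 genes and for 24.4% of all tested genes. The cause of this shared variation was not tested.

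Ratios between chains within a library do not depend on the library's scaling. Lamb1 to Lamb2 stood at 2.38, 2.54, 2.63 and 2.89 in DMSO 1 to 4 and at 3.56, 3.3002, 3.33 and 3.26 in DoxSa 1 to 4. All DoxSa values were above all DMSO values. The mean log2 ratio rose by 0.37, from 1.38 ± 0.12 to 1.75 ± 0.06 (SD, n = 4), or 1.29-fold (exact two-sided permutation test, p = 0.0286, adjusted p = 0.0381 over the 4 ratios computed). On log2(FPKM + 1) the difference was 0.36 and did not pass (exact permutation, adjusted p = 0.114). All DoxSa values still lay above all DMSO values on that scale, and the adjusted p also depends on the p of the other ratios. Lamb2 made up 27.8 ± 1.61% of the summed beta chain FPKM in DMSO and 22.9 ± 0.685% in DoxSa. The sum itself was 115 ± 7.93 FPKM and 114 ± 2.35 FPKM.

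The ratio of Lama4 to Lama2 was 22.6, 21.5, 19.4 and 22.9 in DMSO and 28.3, 23.03, 27.03 and 25.4 in DoxSa. DoxSa 2 was the lowest of its group and lay just above DMSO 4. The mean log2 ratio was higher by 0.26, or 1.2-fold (exact two-sided permutation test, p = 0.0286, adjusted p = 0.0381, n = 4 per group). On log2(FPKM + 1) it was 0.19 and did not pass (exact permutation, adjusted p = 0.171). Lama2 made up 4.42 ± 0.321% of the summed alpha chain FPKM of the 3 genes in DMSO and 3.72 ± 0.321% in DoxSa, and Lama4 95.2 ± 0.327% and 96.0 ± 0.335%.

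Lama4 to Lama5 was higher in DoxSa by 0.35 on the log2 scale (exact two-sided permutation test, p = 0.0286, adjusted p = 0.0381, n = 4 per group). The groups met almost edge to edge, at a log2 ratio of 8.0596 in DMSO 1 and 8.0604 in DoxSa 2, and the value rests on the few Lama5 reads. Without DMSO 2 the difference was 0.21, and on log2(FPKM + 1) it was 0.047 and did not pass (exact permutation, adjusted p = 0.543). Nid1 to Nid2 differed by 0.05, with a mean log2 ratio of 1.81 ± 0.09 in DMSO and 1.86 ± 0.03 in DoxSa (exact two-sided permutation test, p = 0.400, adjusted p = 0.400, n = 4 per group). With 4 against 4 libraries 0.0286 is the smallest p this test can give. Lama4 to Lama2, Lama4 to Lama5 and Lamb1 to Lamb2 share it, and their adjusted p of 0.0381 depends on all of them having it. For the other pairs it would be higher if Lama4 to Lama5, with its narrow gap, did not have it.

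**Figure D4:**
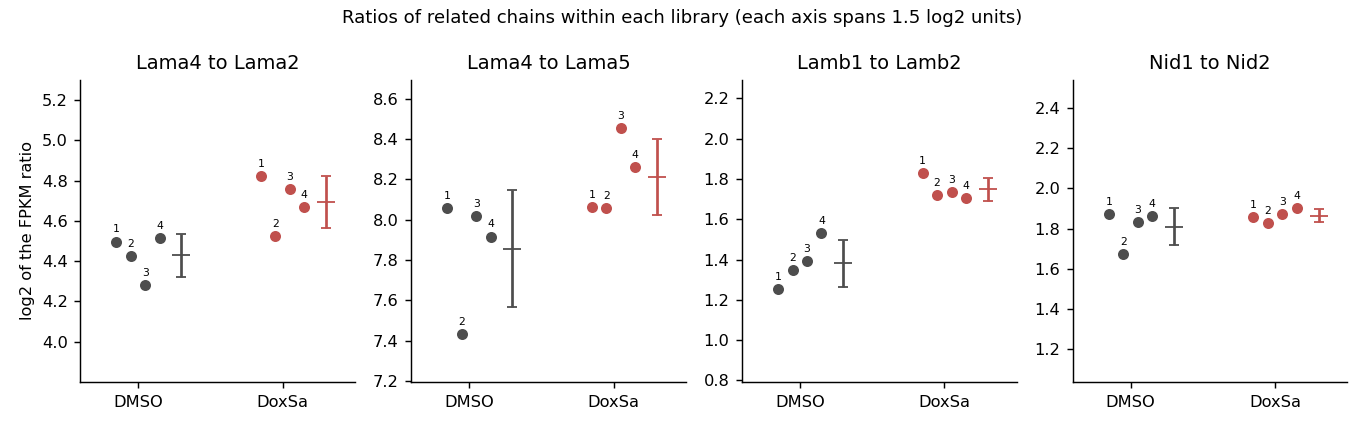
Log2 of the FPKM ratio of 4 chain pairs in each library, numbered by replicate, with group mean and SD; each vertical axis spans 1.5 log2 units. All DoxSa points lie above all DMSO points for Lamb1 to Lamb2, for Lama4 to Lama2 and, by a hair, for Lama4 to Lama5, and the groups overlap for Nid1 to Nid2.

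Promoter windows from RefSeq (build GRCm38.p6, 250 bases before to 50 after the listed start) matched 7 of the 10 genes, not Lama4, Lamc1 and Nid2. They are shown because Lama2, Lamb2 and Hspg2 fell while Lamb1 did not pass the test. Both strands were searched for the GC box (GGGCGG, bound by Sp factors), a TEAD motif (GGAATG), the AP-1 motif (TGANTCA) and the CArG box of serum response factor. The search covered 32851 windows, with those of 1 chromosome left out. Of these, 35.7% held a GC box, 14.7% the TEAD motif, 7.81% the AP-1 motif and 1.63% a CArG box. The Hspg2 window, with 70.3% G and C, held 5 GC boxes. The Lamb1 window (63.7% G and C) held 2, the Lama2 window (50.3%) 1 GC box and 1 CArG box, and the Lamb2 window (44.0%) had no match to any of the 4. Lama5 had 4 GC boxes, Nid1 1 GC box and 1 TEAD motif, and Sparc no match. The stretches of Hspg2 (chr4:137468553-137468750, plus strand) and Lamb2 (chr9:108479612-108479735, plus strand) lie upstream of every annotated exon of the gene. The shorter stretches of Lama2 (chr10:27616962-27616991, minus strand) and Lamb1 (chr12:31265202-31265231, plus strand) lie inside the RefSeq gene span, which begins upstream of the listed start. Capitals mark GC boxes in Hspg2 and Lamb1 and the CArG box in Lama2, and Lamb2 has none.
Hspg2: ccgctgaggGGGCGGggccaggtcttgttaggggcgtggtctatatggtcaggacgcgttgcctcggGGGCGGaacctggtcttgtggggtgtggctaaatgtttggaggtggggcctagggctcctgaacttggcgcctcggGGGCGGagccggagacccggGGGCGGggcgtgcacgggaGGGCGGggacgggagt
Lamb2: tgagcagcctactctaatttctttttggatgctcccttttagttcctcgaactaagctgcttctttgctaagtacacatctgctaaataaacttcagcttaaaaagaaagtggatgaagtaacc
Lama2: aaccaaggacCCTTTAAAGGcccaggcctg
Lamb1: ctgtcctCCGCCCcctCCGCCCccgctctc
The 3 genes that fell thus had no motif of the 4 in common. A match or its lack is a description of these letters only.

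Around these genes, 8 lists of basement membrane genes held 107 tested genes, of which 8 fell and 6 rose. Their share lower was read beside the 2.02% of all tested genes called lower and their share higher beside 3.88%. Among the other laminin chains, Lamb3 stood at 1.53 ± 0.386 FPKM (DMSO) and 1.51 ± 0.139 FPKM (DoxSa) and did not pass the test, and Lama1, Lama3 and Lamc3 had means under 0.5 FPKM. Ntn4 encodes netrin 4, a laminin-related protein that binds the gamma chain and opens laminin networks. It stood at 2.92 ± 0.437 FPKM (DMSO) and 1.78 ± 0.128 FPKM (DoxSa) with no overlap, a log2 fold change of -0.49 ± 0.07 (limma adjusted p = 0.00344), and it was called under all 19 alternatives.

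Of 13 tested genes of the collagen IV network and other basement membrane collagens, 1 fell and 0 rose (median log2 fold change -0.03). The main collagen IV chains Col4a1 and Col4a2 measured 249 ± 23.4 and 163 ± 15.2 FPKM in DMSO and 242 ± 7.18 and 156 ± 4.39 FPKM in DoxSa, with limma adjusted p of 0.796 and 0.645. The gene that fell was Col4a5, a minor collagen IV chain, at 6.99 ± 0.901 FPKM in DMSO and 5.01 ± 0.379 FPKM in DoxSa (log2 fold change -0.40 ± 0.08, limma adjusted p = 0.0122). Among the laminins the most abundant chains did not pass the test either. Of the less abundant laminin chains tested, Lama2 and Lamb2 fell and Lamb3 did not pass.

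Of 13 other basement membrane components tested, Npnt (nephronectin, an integrin ligand) fell and 0 rose. Npnt stood at 2.81 ± 0.312 FPKM (DMSO) and 2.13 ± 0.218 FPKM (DoxSa) (log2 fold change -0.28 ± 0.07, limma adjusted p = 0.0397). Its call held without DMSO 3 or DoxSa 4 and was lost without any 1 of the other 6 libraries (adjusted p between 0.0601 and 0.113). It was also lost with library quality weights (0.0547) and when low genes were kept in the fit (0.150). Agrn, the heparan sulfate proteoglycan agrin, measured 3.45 ± 0.450 and 3.44 ± 0.311 FPKM (adjusted p = 0.998). In the SPARC family 0 of 5 tested genes passed, and the smallest limma adjusted p was that of Smoc2 (0.374).

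Among 14 tested receptors, 2 fell and 1 rose. Itga1, the integrin alpha 1 subunit that binds collagen IV and laminin, stood at 6.19 ± 0.209 FPKM (DMSO) and 4.81 ± 0.366 FPKM (DoxSa) (log2 fold change -0.31 ± 0.05, limma adjusted p = 0.00687). Bcam, a receptor for laminins with the Lama5 chain, measured 3.33 ± 0.189 FPKM and 2.40 ± 0.260 FPKM (log2 fold change -0.35 ± 0.06, limma adjusted p = 0.00820). Sdc1, the cell surface proteoglycan syndecan 1, rose from 31.3 ± 0.694 FPKM to 36.7 ± 1.97 FPKM (log2 fold change 0.22 ± 0.04, limma adjusted p = 0.0114). The groups did not overlap for any of these 3. The shared integrin subunit Itgb1 and the dystroglycan gene Dag1 had log2 fold changes of -0.09 ± 0.03 and -0.12 ± 0.04 and did not pass the test (limma adjusted p = 0.170 and 0.148).

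In the dystrophin complex and the enzymes that glycosylate dystroglycan, 0 of 18 tested genes passed, with a median log2 fold change of -0.03. Of 20 tested genes of heparan sulfate synthesis, which makes the sugar chains of perlecan, 0 passed. The nearest was Xylt2, a xylosyltransferase that starts the chains (log2 fold change 0.12 ± 0.04, limma adjusted p = 0.111).

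Most calls of the 8 lists came from the 21 tested proteases and inhibitors that act on basement membranes, where 5 rose and 3 fell. Timp3 encodes an inhibitor of metalloproteinases that stays bound to matrix, and stood at 69.5 ± 6.85 FPKM (DMSO) and 35.6 ± 5.06 FPKM (DoxSa) (log2 fold change -0.95 ± 0.10, limma adjusted p = 3.12e-04). Adamts1 and Adamts5, proteases that cut large proteoglycans, fell with log2 fold changes of -0.29 ± 0.04 and -0.28 ± 0.04. The soluble inhibitor Timp1 rose with 0.38 ± 0.05, Plau, the gene of urokinase, with 0.22 ± 0.03 and the cathepsin gene Ctsl with 0.22 ± 0.04. Mmp3, which encodes stromelysin 1, and the cathepsin gene Ctss also rose, with 0.54 ± 0.11 and 0.24 ± 0.05. These last 2 were named after their values were seen.

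**Figure D5:**
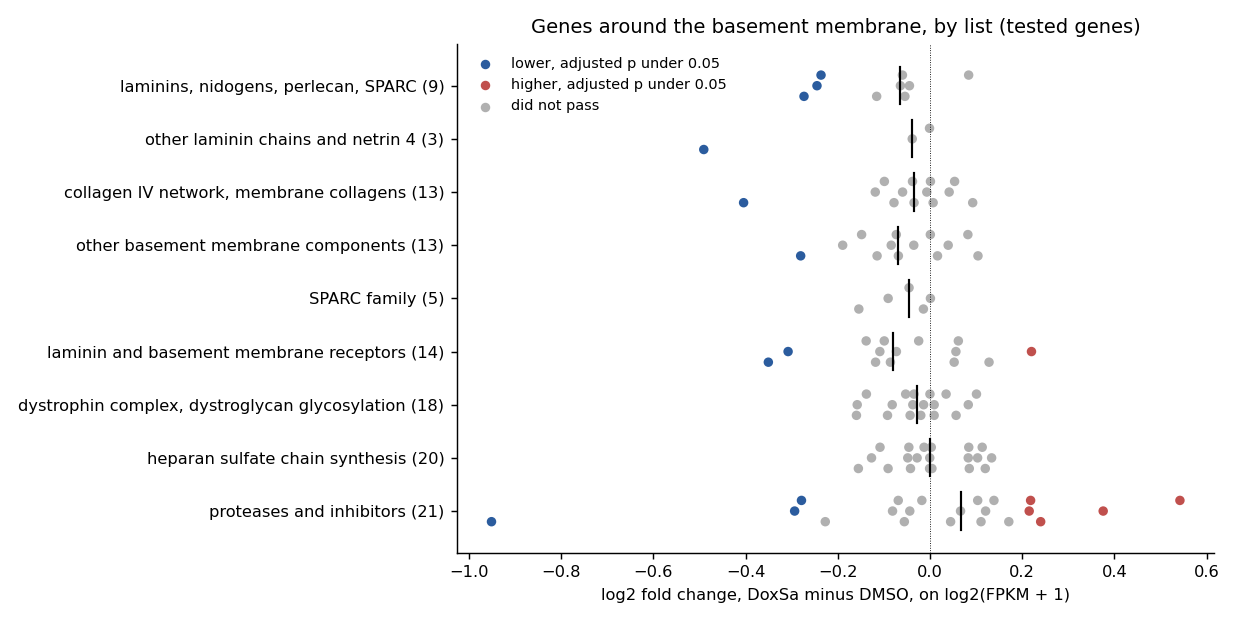
Log2 fold change (DoxSa minus DMSO, on log2(FPKM + 1), horizontal axis) of the tested genes of each list, 1 point per gene, with the list median as a black bar and the number of tested genes in brackets. The genes called lower outside the protease row lie between -0.24 (Hspg2) and -0.49 (Ntn4). The protease row spreads furthest on both sides, with Timp3 at -0.95.

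Among the markers of pericytes and smooth muscle cells, which also lie in a basement membrane, 5 of 10 tested were lower in DoxSa and 0 higher. Their summed level was 636 to 706 FPKM in DMSO and 456 to 511 FPKM in DoxSa. Acta2, smooth muscle actin, measured 289 ± 19.3 FPKM and 184 ± 8.98 FPKM (log2 fold change -0.64 ± 0.05, limma adjusted p = 9.53e-05), and Tagln, Cnn1, Myh11 and Pdgfrb fell too. The other 5 tested markers did not pass the test. Mcam was among them, at 15.9 FPKM over the 8 libraries (log2 fold change -0.07, limma adjusted p = 0.605). The median log2 fold change of the 10 tested markers was -0.18. The remaining 3 of the 13 listed, Rgs5, Kcnj8 and Higd1b, had means under 0.5 FPKM over the 8 libraries. Activated fibroblasts also express Acta2, Tagln and Cnn1. The mesothelial list summed to 16.9 to 17.3 FPKM in DMSO and 11.6 to 16.3 FPKM in DoxSa, nearly all from the keratin gene Krt19, and the Schwann cell list to 7.46 to 9.10 and 8.01 to 10.03 FPKM. The part of these markers in the falls of Lama2, Lamb2 and Hspg2 was not tested.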

How the data were processed

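The 8 libraries were grouped by the treatment in their titles; the labels give no batch. Per the labels' protocols, total RNA was isolated with TRIzol and sequenced from VAHTS Universal V6 libraries. The submitters' processing notes name HISAT2, HTSeq and the build GRCm39. For versions, annotation and strand setting, the entry is "not given in the sources used here", so reads of overlapping antisense genes cannot be told apart. The authors deposited FPKM, reads scaled to gene length and library total.

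The 12060 genes averaging 0.5 FPKM or more over the 8 libraries were fitted with limma 3.58.1 (R 4.3.3, eBayes with trend) on log2(FPKM + 1) without covariates, with Benjamini-Hochberg adjustment over them. Whole reads (tolerance 0.001) were recovered from the FPKM steps for 12060 of these genes and gave the depths and a voom alternative, which called 317 genes lower and 627 higher. Chain ratios were compared by exact permutation over 70 assignments (scipy 1.17.1). Scripts were tested on simulated data. Of 138 listed context genes 137 were in the table. Named were other laminin chains, Col4a1, Col4a2, Agrn, Itgb1 and Dag1, and from each list the called genes, up to 3 a direction by adjusted p, or the nearest gene where 0 passed. Some genes under this rule are not reported here. The genes, lists and tests were chosen with earlier results of these data known.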

Additional observations from a re-analysis of the deposited data

How the results depend on the processing

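The 19 alternatives covered pseudocount, filter, scaling, the limma settings, voom on recovered reads, the replicate block and each left-out library. Lama2 was called under all 19, Lamb2 under 15 and Hspg2 under 6, and all 3 stayed lower in each. Without a filter, which adds tested genes, 1 of the 10 genes (Lama2) was called, 5 context genes fell and 108 genes fell and 158 rose in all. Leaving out single libraries gave 1 to 3 of the 10 genes lower, 152 to 235 genes lower and 233 to 490 higher in all. On log2(FPKM + 1) the ratio differences were 0.19 for Lama4 to Lama2, 0.047 for Lama4 to Lama5 and 0.36 for Lamb1 to Lamb2 (exact permutation adjusted p = 0.171, 0.543 and 0.114). The added 1 is large beside Lama2 at 3.39 FPKM and Lama5 at 0.311 FPKM. For Lamb1 to Lamb2 the groups still did not overlap, and its adjusted p also depends on the p of the other ratios. With 1 library left out the ratio test cannot reach 0.05.

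Signs turned for 3 named genes that did not pass the test. Lamb3 (log2 fold change -0.00) had 0.0081 and 0.0022 with pseudocounts of 0.1 and 0.5, 0.033 with library weights, 0.011 with voom and -0.084 to 0.089 with left-out libraries. Agrn (0.00) had -0.010 with equal sums, -0.012 with median-of-ratios scaling, -0.021 with quantile normalization, -0.011 with library weights and -0.063 to 0.054 with left-out libraries. With left-out libraries Col4a1 ranged from -0.099 to 0.0038. The cause was not tested.

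Same-numbered libraries of the 2 groups correlated at -0.099 to 0.065, and 0 of 4 pairs passed 0.1. Differently numbered pairs ranged from -0.205 to 0.154, so these values cannot show whether same-numbered libraries share an origin. With the replicate block, 2 of the 10 genes were called lower (Hspg2 adjusted p = 0.0945), 7 context genes lower (Npnt lost its call, adjusted p = 0.0612), and 209 genes lower and 415 higher in all. The block left each ratio difference as it was, at 0.26, 0.35, 0.37 and 0.05, where its smallest possible p is 0.125.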
